A study of Mus musculus with 18 samples.

Results

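The genes examined here encode the phagocyte NADPH oxidase and were taken as the rows of the count table whose Ensembl identifiers map to Cybb, Cyba, Ncf1, Ncf4, Rac2 and Hvcn1, which gave 6 of the 54232 genes counted. They were read in 18 RNA-seq libraries of mouse intestinal dendritic cells (DCs), with 3 libraries in each of 6 groups. The groups were CD11b+, CD103+ and double-positive (CD11b+ CD103+) DCs of the small intestinal lamina propria (LP), and the same 3 subsets of the intestinal lymph nodes (LN). All mice were C57BL/6J and all 18 libraries carry the genotype CD11a KO, so no wild-type library stands beside them and the values show differences between tissues and subsets, not an effect of the genotype. CD11a is the integrin chain encoded by Itgal. The labels give neither the allele, the age of the mice nor whether animals were pooled, and assign no infection or other treatment to a single library. Nothing says that the 3 libraries of a group came from separate animals, so p-values measure only the spread between libraries, which may be technical.

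The phagocyte NADPH oxidase is an enzyme of the plasma and phagosome membrane that moves electrons from NADPH to oxygen and so makes superoxide. Its catalytic core is a membrane pair, gp91phox or NOX2 (Cybb) and p22phox (Cyba). At rest the cytosolic subunits p47phox (Ncf1) and p40phox (Ncf4) stand apart from it, and on stimulation they move to the membrane together with a Rac GTPase. The proton channel Hv1 (Hvcn1) carries the charge that would otherwise stop the electron flow. Loss of Cybb, Cyba, Ncf1 or Ncf4 causes forms of chronic granulomatous disease in people. In DCs the oxidase is known to oppose acidification of the phagosome, which preserves antigen for cross-presentation.

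On GRCm38 (GENCODE vM21), Cybb (ENSMUSG00000015340) lies on the minus strand at chrX:9435252-9487771 and Cyba (ENSMUSG00000006519) on the minus strand at chr8:122424776-122432930. Ncf1 (ENSMUSG00000015950) is at chr5:134220053-134229625 on the minus strand, and Hvcn1 (ENSMUSG00000064267) at chr5:122206804-122242297 on the plus strand. Ncf4 (ENSMUSG00000071715) at chr15:78244801-78262580, plus strand, and Rac2 (ENSMUSG00000033220) at chr15:78559167-78572783, minus strand, share chromosome 15. The annotated exons of Ncf1 and of Hvcn1 overlap a gene on the opposite strand, over 408 bases with Gtf2ird2 and over 1574 bases with Tctn1. The sources used here do not say whether the counting used strand, so reads from the overlaps cannot be assigned. Gtf2ird2 was at 8.37 to 23.8 CPM (counts scaled by TMM to a common library size) and Tctn1 at 1.57 to 5.69 CPM over the 18 libraries. Both were below every value of the member they overlap.

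The 250 bases before the transcription start are shown for the 3 members that the RefSeq promoter table holds (GRCm38.p6, all minus strand), because these 3 genes followed different patterns over the groups. The letters searched on both strands were GAGGAA, a core of PU.1 sites, and TGANTCA, an AP-1 site, and capitals mark a match. The windows are chrX:9469325-9469574 for Cybb, whose RefSeq start lies inside the GENCODE span of the gene, chr8:122432941-122433190 for Cyba and chr5:134229626-134229875 for Ncf1.
Cybb: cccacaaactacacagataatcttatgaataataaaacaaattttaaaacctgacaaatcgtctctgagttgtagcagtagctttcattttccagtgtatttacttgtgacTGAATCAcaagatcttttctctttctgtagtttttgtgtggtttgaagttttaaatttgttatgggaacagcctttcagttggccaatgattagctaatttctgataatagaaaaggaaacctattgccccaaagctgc
Cyba: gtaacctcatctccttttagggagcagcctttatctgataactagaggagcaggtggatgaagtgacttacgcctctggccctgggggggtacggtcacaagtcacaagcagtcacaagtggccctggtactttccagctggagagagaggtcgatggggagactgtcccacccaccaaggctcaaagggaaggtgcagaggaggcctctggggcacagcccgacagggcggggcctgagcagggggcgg
Ncf1: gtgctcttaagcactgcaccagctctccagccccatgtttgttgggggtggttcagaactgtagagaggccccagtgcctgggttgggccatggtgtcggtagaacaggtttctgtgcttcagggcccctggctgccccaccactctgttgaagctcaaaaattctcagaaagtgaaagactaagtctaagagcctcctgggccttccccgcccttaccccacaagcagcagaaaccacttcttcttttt
Cybb held 1 AP-1 match, from 139 to 133 bases before the start, and neither motif was found in the windows of Cyba and Ncf1. Over 32851 promoters of the same length, 6.75% held the AP-1 letters and 23.3% the PU.1 letters. A match describes the letters of the window and is not evidence of a bound site.

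Total counts per library were between 23574292 and 46901985 (median 27356482), and 17074 genes had enough counts to be tested, all 6 members among them. Itgal, the target of the knockout, had reads in all libraries, at 6.45 to 26.6 CPM (median 19.4), which checks nothing about an allele that is not described. Itgae, which encodes CD103, averaged 1337 CPM in LP CD103+ and 812 CPM in LP double-positive DCs but 35.4 and 46.1 CPM in the same subsets of the LN. Itgam, which encodes CD11b, averaged 68.5 CPM in LP and 5.16 CPM in LN double-positive DCs. All 9 LP libraries had Ddx3y of the Y chromosome at 50.04 CPM or more and Xist at no more than 0.286 CPM, whereas all 9 LN libraries had Xist at 15.4 CPM or more. Replicate 3 of LN CD11b+ and replicate 3 of LN double-positive DCs had both transcripts, with Ddx3y at 58.0 and 52.2 CPM. In the other LN libraries Ddx3y was at most 0.351 CPM, so tissue and the sex of the mice cannot be told apart.

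The 6 genes fell into different patterns over the 6 groups, and the catalytic subunit varied far more than the rest. The mean CPM of Cybb was 77.0 times higher in its highest than in its lowest group. The same ratio was 5.30 for Ncf4, 4.83 for Rac2, 3.41 for Hvcn1, 3.32 for Cyba and 3.11 for Ncf1. Cybb was lowest in CD103+ DCs of both tissues, Cyba was higher in every LN library than in every LP library, and Rac2 was lowest in LN CD103+ and LN double-positive DCs. These are bulk libraries, in which fewer cells of a type and less RNA per cell cannot be told apart.

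**Figure D1:**
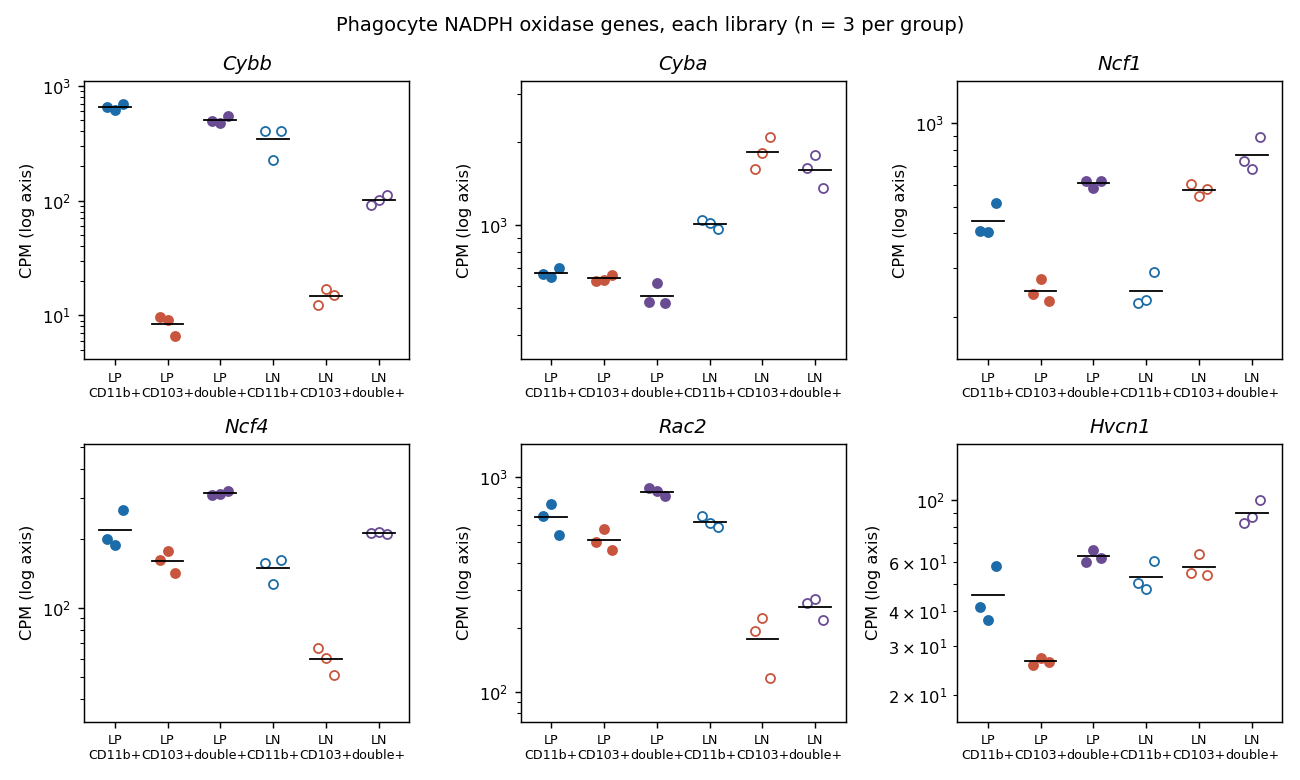
CPM of the 6 oxidase genes in each library, on a log axis that differs in range between panels. Filled points are LP and open points LN libraries (n = 3 per group), coloured by subset, and the black line is the group mean. Cybb separates CD103+ DCs, with at most 16.8 CPM, from the other 4 groups, with at least 90.7 CPM.

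Cybb, the catalytic subunit, had 654, 613 and 688 CPM in LP CD11b+ DCs and 497, 478 and 545 CPM in LP double-positive DCs. In LP CD103+ DCs it had 9.62, 9.12 and 6.65 CPM, from 272, 424 and 163 reads. The LP CD103+ values therefore lay far below both other LP groups, with no overlap. In the LN, Cybb had 405, 224 and 406 CPM in CD11b+, 12.2, 16.8 and 14.9 CPM in CD103+ and 90.7, 100.4 and 112 CPM in double-positive DCs. From highest to lowest mean the order was LP CD11b+, LP double-positive, LN CD11b+, LN double-positive, LN CD103+ and LP CD103+. No 2 neighbours in that order overlapped. The step from LP CD11b+ to LP double-positive DCs did not pass the test (log2 fold change -0.36 ± 0.18 SE, edgeR adjusted p = 0.22), nor did the fold from LN to LP CD103+ DCs reach the limit of 2.

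Cyba, which stabilises gp91phox in the membrane and also serves other NADPH oxidases, had 666, 646 and 699 CPM in LP CD11b+, 629, 634 and 660 CPM in LP CD103+ and 526, 616 and 522 CPM in LP double-positive DCs. In the LN it had 1046, 1015 and 972 CPM in CD11b+, 1604, 1824 and 2089 CPM in CD103+ and 1618, 1794 and 1360 CPM in double-positive DCs. The lowest LN library thus stood above the highest LP library. LN CD103+ and LN double-positive DCs overlapped, as did LP CD11b+ and LP CD103+ DCs. Unlike Cybb, Cyba was as high in LP CD103+ DCs as in LP CD11b+ DCs within the spread (log2 fold change -0.06 ± 0.11, edgeR adjusted p = 0.69).

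Ncf1, the organiser subunit, had 408, 406 and 517 CPM in LP CD11b+, 241, 273 and 227 CPM in LP CD103+ and 619, 582 and 622 CPM in LP double-positive DCs. In LN CD11b+ DCs it had 225, 230 and 291 CPM, in LN CD103+ DCs 606, 545 and 577 CPM and in LN double-positive DCs 729, 684 and 890 CPM. LN double-positive DCs were highest and did not overlap any other group. LN CD11b+ and LP CD103+ DCs were lowest and overlapped each other, and LP double-positive overlapped LN CD103+ DCs. CD11b+ DCs thus had more Ncf1 than CD103+ DCs in the LP and less in the LN.

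Ncf4, whose product p40phox binds a phosphoinositide of the phagosome membrane, had 199.97, 187 and 267 CPM in LP CD11b+, 161, 176 and 142 CPM in LP CD103+ and 309, 314 and 323 CPM in LP double-positive DCs. In the LN it had 156, 127 and 162 CPM in CD11b+, 67.0, 60.6 and 51.0 CPM in CD103+ and 211, 213 and 209 CPM in double-positive DCs. Double-positive DCs were the highest subset within each tissue, and LN CD103+ DCs were below every other library. LP CD11b+ overlapped LN double-positive DCs, and LP CD103+ overlapped LN CD11b+ DCs.

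Rac2, the Rac GTPase of haematopoietic cells that activates the assembled enzyme, had 661, 749 and 537 CPM in LP CD11b+, 497, 572 and 457 CPM in LP CD103+ and 892, 859 and 817 CPM in LP double-positive DCs. In the LN it had 661, 613 and 589 CPM in CD11b+, 193, 222 and 117 CPM in CD103+ and 259, 271 and 216 CPM in double-positive DCs. The 6 libraries of LN CD103+ and LN double-positive DCs were the lowest of all and overlapped each other. LN CD11b+ DCs stayed within the range of LP CD11b+ DCs.

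Hvcn1, the proton channel, had 41.4, 37.1 and 58.2 CPM in LP CD11b+, 25.6, 27.2 and 26.3 CPM in LP CD103+ and 60.0, 66.3 and 62.2 CPM in LP double-positive DCs. In the LN it had 50.4, 47.8 and 60.5 CPM in CD11b+, 54.9, 63.8 and 53.7 CPM in CD103+ and 82.6, 86.9 and 99.9 CPM in double-positive DCs. LN double-positive DCs were highest and LP CD103+ DCs lowest, each without overlap with its neighbour. The 4 groups between them formed a chain in which each overlapped the next.

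Levels of different genes can be compared only per length, and CPM per kb of annotated exon was used. Cyba was the highest of the 6 members in every group, from 534 ± 51.2 CPM per kb (SD, n = 3) in LP double-positive to 1770 ± 233 in LN CD103+ DCs. Cybb stood at 112 ± 6.45 CPM per kb in LP CD11b+ DCs, close to Ncf1 (121 ± 17.4) and Ncf4 (108 ± 21.2). In LP CD103+ DCs, Cybb was at 1.46 ± 0.274 CPM per kb, below Ncf1 (67.5 ± 6.38), Ncf4 (79.0 ± 8.50) and Rac2 (164 ± 18.8). The level of Cybb per level of Cyba, both per length, was 0.174 ± 0.00349 in LP CD11b+, 0.165 ± 0.0242 in LP double-positive and 0.0612 ± 0.0189 in LN CD11b+ DCs. It was 0.0116 ± 0.00271 in LN double-positive, 0.00237 ± 0.000499 in LP CD103+ and 0.00143 ± 0.000196 in LN CD103+ DCs. The groups of each tissue kept the same order for this ratio, CD11b+ above double-positive above CD103+, although LP CD11b+ and LP double-positive DCs overlapped.

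The balance of the cytosolic subunits differed between groups as well. Per length, Ncf1 was between 0.855 and 1.13 times Ncf4 on average in the 3 LP groups and LN CD11b+ DCs. It was 2.01 ± 0.300 times Ncf4 in LN double-positive and 5.40 ± 0.733 times Ncf4 in LN CD103+ DCs, and none of these 6 LN libraries overlapped the other 12. Rac2 per Cyba was 0.520 ± 0.0508 in LP double-positive and 0.0333 ± 0.0126 in LN CD103+ DCs. With the longest coding transcript in place of all exons, a choice made after the data were seen, Cyba stayed the highest member in each group, while the order of Ncf4 and Cybb changed in LP CD11b+ and that of Ncf1 and Ncf4 in LP double-positive DCs.

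**Figure D2:**
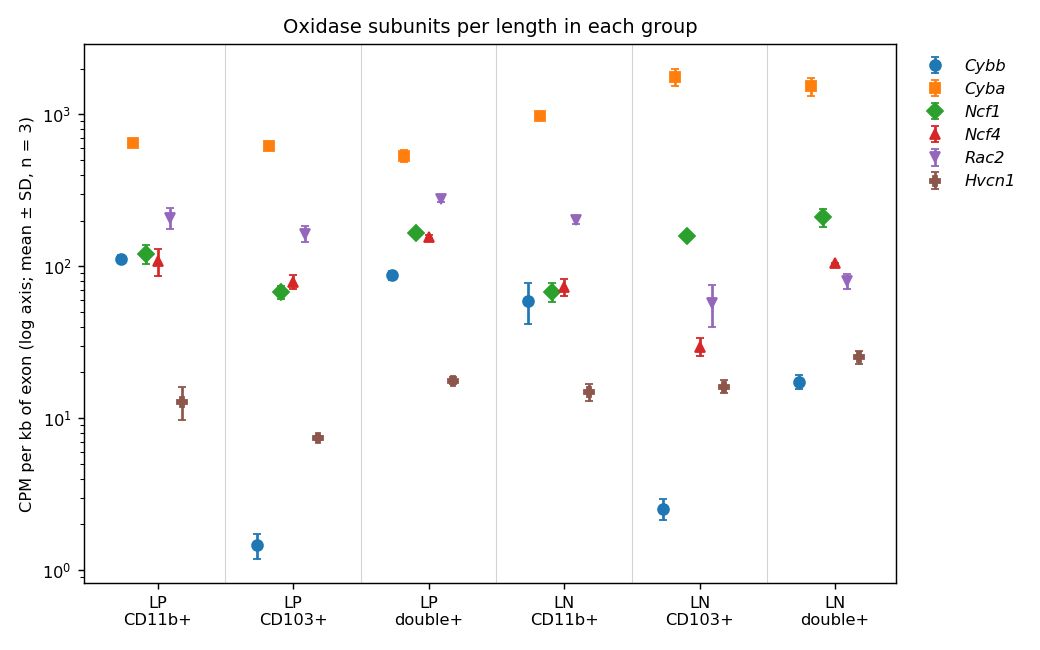
Mean CPM per kb of annotated exon (log axis) of the 6 oxidase genes in each of the 6 groups, with bars of 1 SD over 3 libraries. Cyba is on top in each group, from 534 to 1770 CPM per kb. Cybb is the lowest member in both CD103+ groups, at 1.46 CPM per kb in the LP and 2.52 CPM per kb in the LN. It is also the lowest in LN double-positive DCs, at 17.4 CPM per kb.

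Between tissues, a gene was called changed at an edgeR quasi-likelihood adjusted p under 0.01 with a fold change over 2, and the question was how each subset differs between the lymph node and the intestine. In CD11b+ DCs none of the 6 genes was called, where 10.3% of the 17074 genes tested were called higher in the LN and 4.93% lower. In CD103+ DCs 3 members were called higher (19.8% of all genes) and 2 lower (15.1%). In double-positive DCs 1 was called higher (18.6%) and 2 lower (13.6%). For the mean of the 3 tissue effects 2 members were called in either direction (32.7%), which were Cyba and Rac2.

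Cyba rose in the LN in CD103+ DCs by 1.52 ± 0.11 on the log2 scale (2.87-fold, edgeR adjusted p = 3.0e-09) and in double-positive DCs by 1.52 ± 0.11 (2.87-fold, adjusted p = 4.1e-09). In CD11b+ DCs its log2 fold change was 0.59 ± 0.11 (1.51-fold), which passed the adjusted p (0.00036) but not the limit on fold change. The mean of the 3 effects was 1.21 ± 0.06 (2.31-fold). Cyba was thus the member that was called higher in the LN in more than 1 subset.

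Rac2 fell in the LN by 1.52 ± 0.18 in CD103+ DCs (2.87-fold, edgeR adjusted p = 1.4e-06) and by 1.78 ± 0.18 in double-positive DCs (3.44-fold, adjusted p = 2.8e-07). In CD11b+ DCs the log2 fold change was -0.06 ± 0.18 (adjusted p = 0.81), and its sign turned to 0.07 with total counts in place of TMM scaling and to 0.05 without LP CD11b+ replicate 2. The tissue effect of Rac2 was lower in CD103+ than in CD11b+ DCs (log2 difference -1.46 ± 0.25, adjusted p = 0.00020) and lower in double-positive than in CD11b+ DCs (-1.72 ± 0.25, adjusted p = 7.5e-05). Between CD103+ and double-positive DCs it differed by -0.26 ± 0.25 (adjusted p = 0.52).

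Cybb fell in the LN by 2.33 ± 0.19 in double-positive DCs (5.02-fold, edgeR adjusted p = 1.9e-08). In CD103+ DCs, where it was low in both tissues, its log2 fold change was 0.78 ± 0.20 (adjusted p = 0.0030), which passed the adjusted p but not the fold limit. In CD11b+ DCs the log2 fold change was -0.92 ± 0.18 (1.89-fold, adjusted p = 0.00079), again short of the limit. There the call depended on single libraries, since the log2 fold change was -1.05 and passed without LN CD11b+ replicate 1 and likewise without replicate 3, which leave the low replicate 2 with 1 other library. The tissue effect of Cybb in double-positive DCs was lower than in CD11b+ DCs (log2 difference -1.41 ± 0.26, adjusted p = 0.00055) and lower than in CD103+ DCs (-3.11 ± 0.28, adjusted p = 5.6e-07).

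Sums of marker genes of DC types and macrophages moved with Cybb in some comparisons and not in others. The summed CPM of 4 genes of CD11b+ type DCs (Itgam, Sirpa, Irf4 and Clec4a2) was 723 to 797 in LP and 188 to 227 in LN double-positive DCs. In CD11b+ DCs it was 687 to 878 in the LP and 585 to 941 in the LN, which overlapped while the values of Cybb did not. Sirpa made up most of the sum there, and averaged 519 CPM in LP and 696 CPM in LN CD11b+ DCs. The other genes of this list were lower in LN than in LP CD11b+ DCs, as Cybb was. Itgam averaged 61.3 CPM in the LP and 20.8 CPM in the LN, Irf4 62.7 and 40.7 CPM and Clec4a2 113 and 34.5 CPM. In CD103+ DCs the sum of the list was 12.6 to 13.7 in the LP and 38.8 to 47.7 in the LN. There Irf4 (5.52 and 26.6 CPM) and Sirpa (4.63 and 14.9 CPM) averaged more in the LN. Itgam (0.902 and 0.438 CPM) and Clec4a2 (2.18 and 0.336 CPM) averaged less. The summed CPM of 7 macrophage genes (Fcgr1, Mertk, C1qa, C1qb, C1qc, Adgre1 and Mrc1) was 620.3 to 1361 in LP CD11b+, 272 to 305 in LP double-positive, 251 to 415 in LN CD11b+ and 68.7 to 75.01 in LN double-positive DCs. It was 36.4 to 42.6 in LP CD103+ and 11.007 to 15.2 in LN CD103+ DCs, where Fcgr1 had no count. In CD103+ DCs the macrophage sum was thus lower in the LN, where Cybb was higher. Adgre1 went against the sum, with 95.4 CPM in LP CD11b+, 196 CPM in LP double-positive and 169 CPM in LN CD11b+ DCs. Every other gene of this list averaged most in LP CD11b+ DCs. C1qb, for one, averaged 348, 38.8 and 75.1 CPM in the same groups. The gate that the labels describe excludes cells with CD64, the product of Fcgr1, which averaged at most 9.79 CPM in any group. LN CD11b+ replicate 2, the library with 224 CPM of Cybb, also had the lowest macrophage sum (251, against 362 and 415) and the lowest CD11b+ type sum (585, against 851 and 941) of its group. In LP CD11b+ DCs the macrophage sum was 812, 620.3 and 1361 in replicates 1 to 3, beside 654, 613 and 688 CPM of Cybb. The part of these cells in the values of Cybb was not tested.

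The summed CPM of 8 neutrophil genes, a cell type rich in this oxidase, was 4.47 to 6.00 in LP double-positive DCs, where Cybb had at least 478 CPM. Ly6g, Camp and Ngp had no count in that group, while Ltf averaged 2.58 CPM and Mmp8 1.54 CPM. The neutrophil sum was 8.42 to 83.7 in LP CD11b+ DCs, highest in replicate 3. That library also had the highest Cybb, Cyba, Ncf1, Ncf4 and Hvcn1 and the lowest Rac2 of its group. Retnlg alone reached 73.5 CPM in the LP and made up most of that highest sum. Retnlg and Mmp8 averaged more in LP than in LN CD11b+ DCs (27.8 and 4.22 CPM, and 3.07 and 0.440 CPM). S100a8 (0.541 and 3.03 CPM), S100a9, Ly6g, Camp and Ngp (0.0675 and 3.28 CPM) averaged less. The neutrophil sum was at most 31.5 in the other 4 groups. Summed CPM of 4 monocyte genes was 342 to 437 in LP CD11b+ and 12.5 to 16.4 in LP double-positive DCs, beside the values of Cybb given above. Summed CPM of 4 eosinophil genes was highest in LP double-positive DCs at 111 to 180, with no count of Epx, against at most 36.6 elsewhere, and its part in the values of that group was not tested. Siglecf made up nearly all of that sum, with a mean of 147 CPM, and Ear1 averaged 0.452 CPM. Prg2 was lower in LP double-positive DCs (0.490 CPM) than in the LN groups (6.79 to 12.0 CPM). Summed CPM of the T cell list was 279 to 684 in the LN and 5.83 to 55.5 in the LP. The sum of the B cell list was highest in LN CD11b+ DCs (177 to 249 CPM) and lowest in LP double-positive DCs (13.6 to 16.3 CPM). It did not separate the tissues, since LP CD11b+ (49.5 to 58.2 CPM) and LN CD103+ DCs (51.4 to 65.7 CPM) overlapped. Plasma cell genes summed to 1184 to 1812 CPM in the CD11b+ groups and to at most 503 CPM in the others. Epithelial genes summed to 572 to 833 CPM in LP double-positive, 215 to 514 CPM in LP CD11b+ and 54.6 to 99.2 CPM in LP CD103+ DCs and to at most 62.6 CPM in the LN, and plasmacytoid DC genes to at most 144 CPM in any library. Of the epithelial genes, Epcam (452 and 210 CPM) and Cdh1 (194 and 45.8 CPM) were higher in LP double-positive than in LP CD11b+ DCs. Krt8 (9.52 and 33.2 CPM), Krt19 (6.92 and 27.2 CPM), Vil1 and Fabp2 were lower. The DC genes themselves (Flt3, Zbtb46, Itgax, H2-Ab1 and Cd74) summed to at least 18951 CPM in every library, but to less in the LN. Their mean sum was 67100 CPM in LP and 19251 CPM in LN CD103+ DCs, 75502 and 45075 CPM in double-positive DCs and 68985 and 42623 CPM in CD11b+ DCs. H2-Ab1 and Cd74 made up most of these sums. Flt3 went the other way, from 624 CPM in the LP to 1032 CPM in the LN in CD103+ DCs. It went from 397 to 799 CPM in double-positive and from 351 to 437 CPM in CD11b+ DCs. Zbtb46 averaged 197 to 255 CPM in the LP groups and 173 to 208 CPM in the LN groups. The 5 genes of CD103+ type DCs summed to 7950 to 8343 CPM in LP and 1828 to 1944 CPM in LN CD103+ DCs. In double-positive DCs their sum was 844 to 1014 CPM in the LP and 778 to 966 CPM in the LN, which overlapped. There Irf8 (83.6 and 689 CPM), Xcr1 (25.7 and 75.5 CPM), Cadm1 (8.59 and 56.4 CPM) and Clec9a averaged more in the LN. Itgae (812 and 46.1 CPM) averaged less. The directions were the same in CD11b+ DCs. Whether a gate holds the same cells in both tissues was not tested. The part of these differences in the values of the members was not tested.

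Ncf1 rose in the LN in CD103+ DCs by 1.22 ± 0.12 (2.33-fold, edgeR adjusted p = 2.4e-07), while its log2 fold change was -0.84 ± 0.12 in CD11b+ DCs (adjusted p = 5.4e-05) and 0.34 ± 0.12 in double-positive DCs (adjusted p = 0.025). The CD103+ effect exceeded the CD11b+ effect by 2.06 ± 0.18 (adjusted p = 1.1e-07). Hvcn1 rose in the LN in CD103+ DCs by 1.13 ± 0.14 (2.18-fold, adjusted p = 2.5e-06), with 0.51 ± 0.14 in double-positive DCs (adjusted p = 0.0039) and 0.21 ± 0.14 in CD11b+ DCs (adjusted p = 0.24). With total counts both CD103+ calls were lost on the fold limit, at log2 fold changes of 1.00 for Ncf1 and 0.90 for Hvcn1. Ncf4 fell in the LN in CD103+ DCs by 1.42 ± 0.13 (2.68-fold, adjusted p = 8.3e-08) and had -0.58 ± 0.13 in double-positive and -0.56 ± 0.13 in CD11b+ DCs, both short of the fold limit. In CD103+ DCs, then, Ncf1 and Ncf4 moved in opposite directions.

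**Figure D3:**
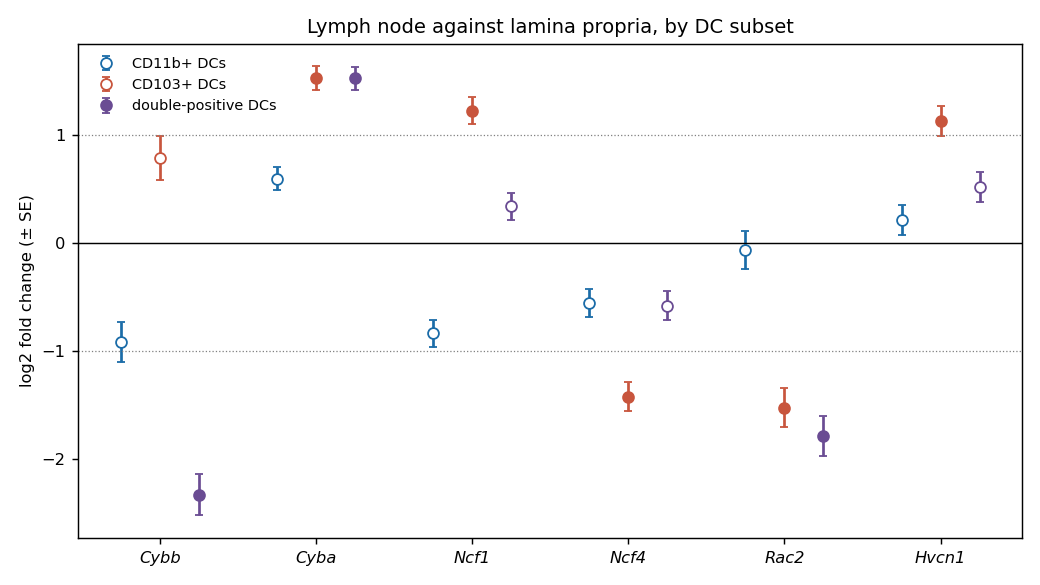
Log2 fold change of the LN against the LP (± SE of the edgeR fit, 3 libraries per group) for each oxidase gene, coloured by DC subset. Filled points passed both the adjusted p and the fold limit (dotted lines), and open points did not. Cyba lies at 1.52 in CD103+ and double-positive DCs, and no CD11b+ point is filled.

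An F test asked whether the tissue effect of a gene differs between the 3 subsets, and it passed for 31.5% of the 17074 genes at an adjusted p under 0.01. It passed for all 6 members, with adjusted p of 6.1e-07 for Cybb, 9.2e-05 for Cyba, 3.8e-07 for Ncf1, 0.0013 for Ncf4, 6.1e-05 for Rac2 and 0.0035 for Hvcn1 (edgeR). The result for Hvcn1 was the least firm. Its adjusted p was 0.011 without LP CD103+ replicate 1 or without replicate 3, 0.015 without LN CD11b+ replicate 1, without LN CD11b+ replicate 2 or without LN CD103+ replicate 2, and 0.030 with total counts.

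Within the LP, the subsets differed chiefly in Cybb. Against CD11b+ DCs, CD103+ DCs had no member called higher (5.07% of all genes) and 1 called lower (10.6%), which was Cybb (log2 fold change -6.26 ± 0.23, 76.6-fold, edgeR adjusted p = 5.5e-12). Ncf1 (-0.84 ± 0.12) and Hvcn1 (-0.79 ± 0.14) passed the adjusted p alone. Double-positive against CD11b+ DCs gave no call in either direction (1.14% of all genes higher and 3.67% lower), with log2 fold changes from -0.36 for Cybb to 0.53 for Ncf4. Double-positive against CD103+ DCs gave 3 members higher (8.10%) and none lower (5.52%). These were Cybb at 5.90 ± 0.23 (59.5-fold, adjusted p = 8.4e-12), Ncf1 at 1.30 ± 0.12 (2.46-fold) and Hvcn1 at 1.25 ± 0.14 (2.38-fold). Ncf4, at 0.98 ± 0.13, was just short of the fold limit and passed it at 1.06 without LP CD103+ replicate 2. The comparisons of a tissue share groups, so they are not independent of each other.

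Within the LN, more members than in the LP separated CD11b+ DCs from both other subsets, and fewer separated double-positive from CD103+ DCs. The shares of all genes called differed between the tissues in the same directions. CD103+ against CD11b+ DCs gave 1 member higher (10.2% of all genes) and 3 lower (15.6%). The log2 fold change was -4.56 ± 0.21 for Cybb (23.6-fold, edgeR adjusted p = 4.5e-11), -1.81 ± 0.18 for Rac2 (3.50-fold) and -1.31 ± 0.13 for Ncf4 (2.49-fold). Ncf1 was higher by 1.21 ± 0.12 (2.32-fold, adjusted p = 3.9e-07), a call that was lost with total counts at 0.78. Cyba, at 0.86 ± 0.11, passed the adjusted p alone. Hvcn1 did not pass (0.12 ± 0.14, adjusted p = 0.48), and its sign turned with total counts to -0.31.

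Double-positive against CD11b+ DCs of the LN gave 1 member higher (6.92% of all genes) and 2 lower (9.82%). Ncf1 was higher by 1.63 ± 0.13 (3.09-fold, edgeR adjusted p = 3.3e-08), while Cybb (-1.77 ± 0.19, 3.42-fold) and Rac2 (-1.32 ± 0.18, 2.50-fold) were lower. Double-positive against CD103+ DCs of the LN gave 2 higher (4.69%) and none lower (1.84%), namely Cybb at 2.79 ± 0.20 (6.89-fold, adjusted p = 5.1e-08) and Ncf4 at 1.83 ± 0.13 (3.54-fold, adjusted p = 6.3e-08). Replacing TMM scaling by total counts moved the median of all genes by -0.43 for LN CD103+ against LN CD11b+ and by -0.37 for LN double-positive against LN CD11b+ DCs, so the values of these comparisons are relative to that choice.

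**Figure D4:**
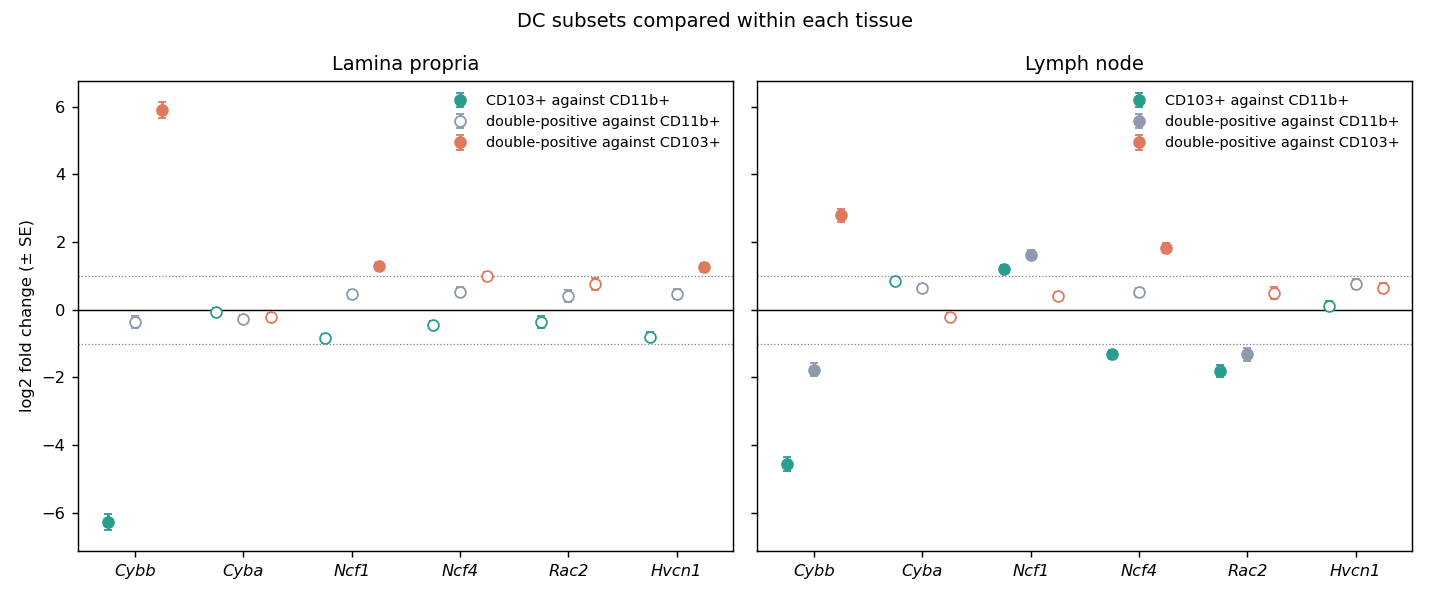
Log2 fold change (± SE, 3 libraries per group) between DC subsets within the LP (left) and the LN (right) for each oxidase gene. Filled points passed the adjusted p and the fold limit (dotted lines). Cybb spans -6.26 to 5.90 in the LP, where the other members stay between -0.84 and 1.30.

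Over the 18 libraries the log2 CPM of Cyba and Rac2 had a Pearson r of -0.89, Ncf1 and Hvcn1 0.79, Ncf4 and Rac2 0.71, and Cybb 0.65 with Ncf4 and -0.37 with Cyba. These correlations describe 6 groups of 3 libraries, so the points share groups, and they carry no test.

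Among 9916 genes tested with at least 10 CPM in a group, the 3 most like each member were named by the Pearson r of log2 CPM over the same 18 libraries. For Cybb these were Fgr, a Src-family kinase of myeloid cells (0.98), Cyp4f18, a P450 enzyme that acts on leukotriene B4 (0.98), and Pxk (0.97). Cyp4f18 averaged 187 CPM in LP CD11b+ and 1.79 CPM in LP CD103+ DCs. For Cyba they were Avpi1 (0.99), Ddit3, a transcription factor of the stress response (0.98), and Iscu, a scaffold for iron-sulfur clusters (0.98). Iscu averaged 98.9 to 115 CPM in the LP groups, 294 CPM in LN CD11b+ and 1184 CPM in LN CD103+ DCs. For Ncf1 they were Rras, a small GTPase (0.95), Traf5, an adaptor of TNF receptors (0.95), and Stxbp2, a protein of granule secretion (0.93). For Ncf4 they were Gm49101, a gene with no given name (0.98), Sulf2, a sulfatase of heparan sulfate (0.98), and Pik3r6, a regulator of PI3-kinase gamma (0.96). Sulf2 averaged 626 CPM in LP double-positive and 46.5 CPM in LN CD103+ DCs. For Rac2 they were Cnp (0.99), Rnf166 (0.98) and Ptp4a3, a tyrosine phosphatase (0.98), and for Hvcn1 Cers6, a ceramide synthase (0.96), Mmd (0.96) and Ifih1, the RNA sensor MDA5 (0.94).

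The genes around the oxidase were read from lists and are described by counts, beside the medians of all genes, which were 0.03 for CD11b+, 0.04 for CD103+ and 0.07 for double-positive DCs (log2, between tissues). For every list count between tissues, the shares of all genes called higher and lower in the LN stand beside it. They were 10.3% and 4.93% in CD11b+, 19.8% and 15.1% in CD103+ and 18.6% and 13.6% in double-positive DCs. Of 7 assembly partners, which include Rac1 and the Rac inhibitor Arhgdib, none was called between tissues in any subset. Of 18 exchange factors and kinases upstream of the oxidase, CD11b+ DCs had 1 called lower in the LN, CD103+ DCs had 3 called higher and 9 lower, and double-positive DCs had 2 called higher and 5 lower. The median log2 fold changes of this list were -0.18, -0.95 and -0.48. Among genes called for the mean effect with at least 10 CPM in a group, the rule for every list below, the largest were Pak1, a kinase that Rac activates, at -2.60 ± 0.08, Mapk14, the stress kinase p38 alpha, at -2.12 ± 0.07, and Tiam1, a Rac exchange factor, at -1.55 ± 0.11. Mapk14 averaged 377 CPM in LP CD103+ and 39.1 CPM in LN CD103+ DCs, against 404 and 299.9 CPM in CD11b+ DCs. Prkca, a protein kinase C under 10 CPM in each group, had a mean effect of 1.69 ± 0.24 in the other direction. The exchange factors Prex1 (1.04 ± 0.08) and Vav2 (1.03 ± 0.09) were also called higher in the LN for the mean effect. Prex1 averaged 130 to 202 CPM in the LP groups and 263 to 484 CPM in the LN groups. Prkca, Prex1 and Vav2 were named after their values were seen, and the list was not tested as a group.

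Of 9 transcription factors known to act on oxidase genes, CD11b+ DCs had 1 called higher in the LN, CD103+ DCs 2 higher and 1 lower, and double-positive DCs 3 higher. The 2 called for the mean effect were Irf1, an interferon-responsive factor, at 1.63 ± 0.07 and Rela, a subunit of NF-kB, at 1.34 ± 0.05. Irf1 averaged 232 CPM in LP and 1620 CPM in LN CD103+ DCs. Within the LP, Cebpa and Cebpb, factors of myeloid genes, were lower in CD103+ than in CD11b+ DCs and Irf8 was higher, by 4.95 on the log2 scale. Irf8 and the Cebp genes were named here after their values were seen.

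Of 8 genes that supply NADPH, 2 were lower in the LN in CD11b+ DCs, and 2 were higher and 3 lower in each of the other subsets. Taldo1 and G6pdx of the pentose phosphate pathway had mean effects of -1.56 ± 0.06 and -1.27 ± 0.06, and Idh1, the cytosolic isocitrate dehydrogenase, 1.97 ± 0.06. G6pdx, the entry enzyme of that pathway, averaged 301 CPM in LP CD11b+ and 333 CPM in LP double-positive but 69.7 CPM in LP CD103+ DCs, and 99.6, 81.1 and 61.1 CPM in the LN groups of the same subsets. Of 24 genes that remove superoxide and peroxide, CD11b+ DCs had 1 called higher and 2 lower in the LN, CD103+ DCs 11 higher and 4 lower, and double-positive DCs 7 higher and 4 lower. Their median log2 fold changes were 0.10, 0.78 and 0.34. Sod3, the extracellular superoxide dismutase, had a mean effect of 5.71 ± 0.29, Srxn1, which repairs peroxiredoxins, 2.57 ± 0.13, and Gclc, the catalytic subunit of glutathione synthesis, 2.25 ± 0.12. Sod3 averaged 0.746 to 1.34 CPM in the LP groups and 21.3, 120.4 and 67.9 CPM in LN CD11b+, CD103+ and double-positive DCs.

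Of 8 genes of LC3-associated phagocytosis, a pathway that uses the oxidase, Rubcn, a regulator of it, was the 1 called for the mean effect, at 1.76 ± 0.10, and averaged 22.7 to 35.5 CPM in the LP and 48.9 to 145 CPM in the LN. CD103+ DCs had 2 genes of this list called higher in the LN, both other subsets had 1, and none was called lower. Of 9 genes of other NADPH oxidases, 4 had enough counts to be tested, and 2 were called higher in the LN in CD103+ and 1 in double-positive DCs. Nox1 and Noxo1, the genes called, averaged at most 2.63 CPM in any group. Of 4 other oxidant-making enzymes, Xdh alone was tested. It was lower in the LN in double-positive DCs, from 52.8 to 9.22 CPM on average.

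**Figure D5:**
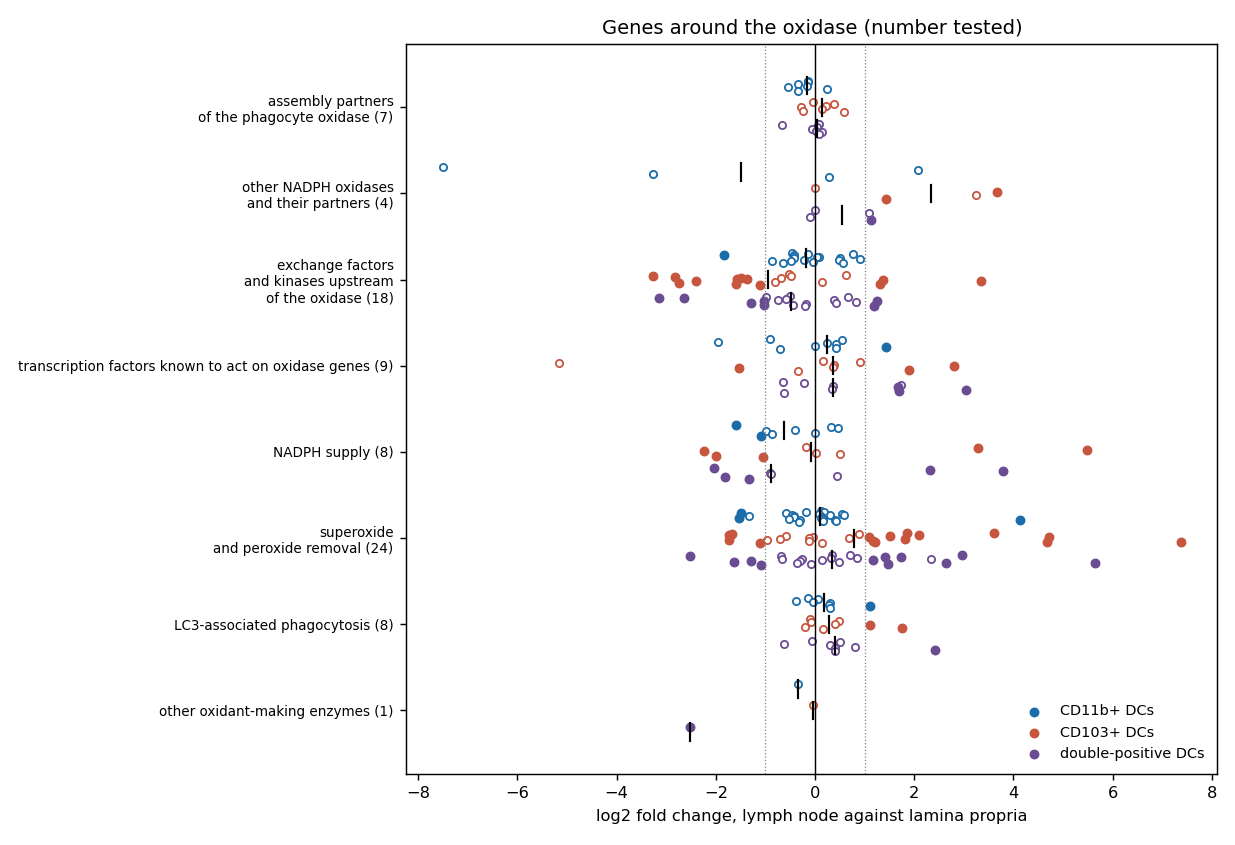
Log2 fold change of the LN against the LP for every tested gene of the 8 lists around the oxidase, by DC subset. Each point is a gene, filled where it passed the adjusted p and the fold limit (dotted lines), and black ticks are list medians. Points of the list for superoxide and peroxide removal reach 7.37 (Sod3 in CD103+ DCs), and the list of exchange factors and kinases has its lowest median, -0.95, in CD103+ DCs.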

How the data were processed

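Libraries of sorted DCs were made with SMART-seq v4 and sequenced on an Illumina HiSeq instrument, per the labels, whose processing notes name FastQC 0.11.7, STAR 2.6 and GRCm38. The authors deposited raw read counts per gene, with no normalization, for 54232 Ensembl genes. The counting tool, its annotation and its use of strand are not given in the sources used here. Symbols were matched by identifier for 54079 genes. Counts were scaled by TMM, filtered with filterByExpr and fitted in edgeR 4.0.16 (R 4.3.3) with a mean for each of the 6 groups, on 17074 genes in 18 libraries. Standard errors were derived from the F statistic. A gene was called at a Benjamini-Hochberg adjusted p under 0.01 over all genes tested and a fold change over 2, and the F test had no fold limit. CPM used TMM-scaled totals, and log2 CPM for correlations a prior count of 2. No 2 replicates agreed within sampling noise (chi-square per gene 14.9 to 64.9). The steps were tested on simulated data.

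The replicate letters shared by the groups (numbered 1 to 3 here) were checked for pairing by the correlation of deviations from group means. Same-lettered libraries deviated together (each of 3 correlations over 0.1) for LP CD11b+ with LP CD103+ (lowest 0.152) and for LP CD103+ with LP double-positive DCs (lowest 0.125), and not for the other 13 pairs of groups.

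The values of 2 genes of the lists are not reported here and do not enter the list counts or sums. The members and lists were chosen with earlier results of these data known. Named genes were the 6 members, the 3 genes most like each, targeted and marker genes, and from each list the 3 genes with the largest called mean tissue effect and at least 10 CPM in a group. Alternatives were DESeq2 1.42.0 size factors and test, total counts, other count filters (none, or 100 counts in 3 libraries), an adjusted p under 0.05, no fold limit, the replicate block, the compared libraries alone and each library left out.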

Additional observations from a re-analysis of the deposited data

Results flagged for a closer look

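The effect of tissue (LN against LP) differed between the 3 DC subsets for each of the 6 oxidase genes by the F test of that difference in edgeR, with adjusted p of 3.8e-07 for Ncf1, 6.1e-07 for Cybb, 6.1e-05 for Rac2, 9.2e-05 for Cyba, 0.0013 for Ncf4 and 0.0035 for Hvcn1. The same test passed for 31.5% of all genes tested. For Cybb, the log2 fold changes were -0.92, 0.78 and -2.33 in CD11b+, CD103+ and double-positive DCs, and for Ncf1 -0.84, 1.22 and 0.34. With 3 libraries per group, no group was large enough to test a single library as an outlier.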

How the results depend on the processing

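Of 311 recomputed counts of members called over the 10 comparisons and the F test, 301 stayed within 1.5 times the reported count. Without a fold limit the count rose from 0 to 4 for tissue in CD11b+ DCs, from 3 to 5 for tissue in double-positive DCs, from 2 to 6 for the mean tissue effect, from 1 to 3 for LP CD103+ against CD11b+, from 3 to 5 for LP double-positive against CD103+ and from 3 to 6 for LN double-positive against CD11b+ DCs, since the looser rule admits smaller changes. With total counts the count for tissue in CD103+ DCs went from 5 to 3, as Ncf1 (1.00) and Hvcn1 (0.90) fell to or below the fold limit. Leaving out single libraries gave 0 to 1 for tissue in CD11b+ DCs, the 1 being Cybb without LN CD11b+ replicate 1 or without replicate 3. An alternative chosen after seeing the data, which left out both libraries with Xist and Ddx3y together, also gave 1 (Cybb, -1.05). The signs that turned were those of Rac2 for tissue in CD11b+ DCs, to 0.0741 with total counts and to 0.0522 without LP CD11b+ replicate 2 (range with single libraries left out -0.184 to 0.0522), and of Hvcn1 for LN CD103+ against CD11b+ DCs, to -0.308 with total counts, none of them called. The cause was not tested. With the replicate block within a tissue, no call on a member changed (Cybb, LP CD103+ against CD11b+ DCs, -6.26), and the count over all genes was 0.844 to 1.07 times the reported one. Over all genes, the count called fell to 0.653 times with the filter of 100 counts for the mean tissue effect, rose 1.57 times with an adjusted p under 0.05 for LP double-positive against CD11b+ DCs, and fell to 0.616 times there with the compared libraries alone. Without a fold limit it was 1.48 to 2.36 times the reported one. Depth limits little here, since the lowest member value, Cybb in LP CD103+ replicate 3, rests on 163 reads.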
